A study of Mus musculus with 12 samples.

Results

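Small nucleolar RNA (snoRNA) host genes are described here in mouse CD8+ T cells that were expanded with or without dichloroacetate (DCA). The set has 9 genes of the 56748 in the deposited count table: Snhg1, Snhg3, Snhg5, Snhg6, Snhg8, Snhg12, Snhg15, Snhg16 and Gas5. They were taken as a list of named genes, matched by symbol and then by Ensembl ID, and Snhg15 was selected on its DCA fold changes, which lie above 0 in experiment 2 and below 0 in experiment 1. Its values are therefore given as a description with no test, in every comparison, and counts of genes that passed a test cover the other 8. All 9 passed the filter on low counts and were among the 15688 genes tested.

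Each of 6 mice gave 1 DCA library and 1 untreated library, so 4 groups of 3 libraries resulted. In experiment 2, DCA cells and untreated cells came from Pmel-1 mice (strain B6.Cg-Thy1a/Cy with the transgene Tg(TcraTcrb)8Rest/J), whose T cells carry a transgenic receptor for gp100. In experiment 1, DCA cells and untreated cells came from OT-1 mice (C57BL/6-Tg(TcraTcrb)1100Mjb/J) by the strain and genotype tags, with a transgenic receptor for the ovalbumin peptide SIINFEKL, although the sample titles there say Pmel-1. Receptor transcripts went with the tags: Trbv14, used by Pmel-1 T cells, had 1677 to 2575 CPM (counts relative to the TMM-adjusted library size) in the 6 libraries of experiment 2 and 0 counts in the 6 of experiment 1. Trbv12-1, of the V beta family of OT-1, had 0.0587 to 0.493 CPM in experiment 2 and 202 to 236 CPM in experiment 1. Spleen cells of all groups saw their peptide for 24 hours (1 uM gp100 or 250 nM SIINFEKL), grew for 6 more days in IL-2 with 5 mM DCA or without it, and were sorted for CD8 on day 7. DCA inhibits the kinases that switch off pyruvate dehydrogenase. Strain, peptide, technical batch and experiment coincide, so their contributions to any difference between the experiments cannot be told apart.

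Library totals lay between 28039700 and 41051100 counts (rounded to 6 digits). Genes detected numbered 23635 to 26571 in experiment 2 and 18382 to 19551 in experiment 1, and mitochondrial transcripts took 2.11% to 2.85% of counts in experiment 2 and 1.01% to 1.58% in experiment 1. Values of cell markers are counts relative to the library total without TMM adjustment, unlike the CPM elsewhere. On this scale the 5 CD8 T cell markers summed to 3801 to 4890 CPM in experiment 2 and to 3190 to 4165 CPM in experiment 1. The TMM factors were above 1 in experiment 2 and below 1 in experiment 1. These sums therefore do not rank the experiments on the TMM scale. Defining markers of other cells were near 0: Cd4 at most 0.638 CPM, Cd79a of B cells at most 0.348 CPM and 3 of the 4 myeloid markers (Lyz2, Itgam and Csf1r) at most 0.447 CPM. The fourth myeloid marker, Cd68, had 6.16 to 27.3 CPM and was at 0 in no library. The 2 natural killer cell markers, Ncr1 and Klrb1c, summed to 0.0579 to 1.34 CPM in experiment 2 and to 5.01 to 11.7 CPM in experiment 1, nearly all of it Klrb1c in experiment 1.

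SnoRNAs are short nuclear RNAs that guide the methylation or pseudouridylation of ribosomal and other RNAs, and in mammals most are cut out of introns. The host genes described here are transcribed for those introns: their spliced exons encode no conserved long protein, yet in many of them the spliced RNA starts with a run of pyrimidines (a terminal oligopyrimidine tract, as in ribosomal protein mRNAs), is taken up by ribosomes and is then destroyed by nonsense-mediated decay. Gas5 was named for its accumulation in growth-arrested cells, and its RNA can bind the glucocorticoid receptor, as shown in human cells. T cells raise ribosome production when they are activated and grow.

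The GRCm38 annotation places 10 snoRNA genes inside Gas5, 8 inside Snhg1, 5 inside Snhg12, 3 inside Snhg16, 2 each inside Snhg3 and Snhg5, and 1 each inside Snhg6, Snhg8 and Snhg15. Snhg1 hosts the snoRNAs of the Snord22 and Snord25 to Snord31 group, Snhg3 the pair Snora73a and Snora73b, Snhg5 the pair Snord50a and Snord50b, Snhg6 Snord87, Snhg8 Snora24, Snhg12 Snora16a, Snora44, Snora61 and Snord99, Snhg15 Snora9, and Snhg16 Snord1a to Snord1c. Gas5 hosts Snord44, Snord47 and a run of others. Of 32 such snoRNAs listed by name, 16 matched a row of the count table, and all 16 had 0 counts in all 12 libraries. Over the whole table, 301 of 1065 snoRNA genes had at least 1 count, with 14961 counts in all. The libraries therefore report on the spliced or unspliced host RNA and not on the mature snoRNAs, for which a limit of 3 counts per library applies, by counting error only.

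The promoters of Snhg15 and Gas5 are shown in full because these 2 genes carry the main differences below. The first bases of the other hosts are shown because the RNA of many hosts starts with a pyrimidine tract. Windows come from RefSeq on GRCm38.p6, with 250 bases before and 50 after the annotated start, 5′ to 3′ on the gene's strand. The table held windows for 8 of the 9 genes. Capitals mark the cyclic AMP response element TGACGTCA, the E-box CACGTG, and each run of at least 5 pyrimidines that overlaps the first 20 transcribed bases. The motifs were picked after looking at the windows.
Snhg15, chr11:6528711-6529010, minus strand: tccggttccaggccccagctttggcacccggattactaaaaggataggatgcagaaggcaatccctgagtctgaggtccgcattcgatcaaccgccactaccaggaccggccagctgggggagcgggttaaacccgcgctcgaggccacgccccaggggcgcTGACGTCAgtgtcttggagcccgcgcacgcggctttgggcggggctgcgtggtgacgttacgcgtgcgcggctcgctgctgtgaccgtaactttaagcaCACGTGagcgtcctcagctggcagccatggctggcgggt
Gas5, chr1:161034916-161035215, plus strand, the second of 2 annotated starts: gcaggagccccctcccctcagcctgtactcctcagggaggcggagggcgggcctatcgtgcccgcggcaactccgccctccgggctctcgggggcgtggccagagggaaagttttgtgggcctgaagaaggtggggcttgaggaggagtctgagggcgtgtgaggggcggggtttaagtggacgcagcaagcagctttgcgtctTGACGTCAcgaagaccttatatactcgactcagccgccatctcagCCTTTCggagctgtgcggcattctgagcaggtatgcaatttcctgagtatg

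The next windows run from 40 bases before to 50 after the start, with capitals on the pyrimidine runs only.
Snhg1, chr19:8723447-8723536, plus strand: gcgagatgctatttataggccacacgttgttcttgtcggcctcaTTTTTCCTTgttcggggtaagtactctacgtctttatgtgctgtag
Snhg3, chr4:132353637-132353726, minus strand: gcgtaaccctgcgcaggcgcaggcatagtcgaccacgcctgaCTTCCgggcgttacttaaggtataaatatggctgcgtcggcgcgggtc
Snhg5, chr9:88522848-88522937, minus strand: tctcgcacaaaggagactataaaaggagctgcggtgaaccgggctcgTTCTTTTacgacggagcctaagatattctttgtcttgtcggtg
Snhg8, chr3:123508287-123508376, minus strand: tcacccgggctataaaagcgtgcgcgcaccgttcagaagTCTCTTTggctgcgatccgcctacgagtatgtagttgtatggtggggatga
Snhg12, chr4:132308638-132308727, plus strand: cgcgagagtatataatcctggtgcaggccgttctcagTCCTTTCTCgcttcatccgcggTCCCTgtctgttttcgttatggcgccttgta
Snhg16, chr11:116671620-116671709, plus strand: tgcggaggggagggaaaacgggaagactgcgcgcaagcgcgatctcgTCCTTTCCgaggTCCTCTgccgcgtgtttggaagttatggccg

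Of the 8 genes with a window, 7 had a pyrimidine run of at least 5 bases at the start, all but Snhg15, against 41.3% of all 32851 promoter windows. In Gas5, Snhg8 and Snhg12 a run spans the annotated start. TGACGTCA, searched on both strands, began 88 bases before the start of Snhg15 and 46 bases before the second start of Gas5, and occurred in 1.79% of all windows. CACGTG, on both strands, began at base 12 of the Snhg15 transcript and occurred in 7.15% of windows. TATAAA on either strand lay in the windows of Snhg1, Snhg3, Snhg5 and Snhg8, against 13.6% of all windows. These motifs do not overlap one another in the windows shown, and a match describes the letters of the window only.

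Per length, the level of Gas5 was the highest of the 9 and that of Snhg3 the lowest in all 4 groups, using the gene lengths in the authors' deposited table. Gas5 stood at 79.3 ± 1.35 CPM per kb in experiment 2 DCA cells and 59.6 ± 4.62 in experiment 2 untreated cells, and at 93.4 ± 2.68 in experiment 1 DCA cells and 86.4 ± 10.4 in experiment 1 untreated cells (mean ± SD, n = 3 each). Snhg3 stood at 0.414 ± 0.0242 and 0.468 ± 0.0479 CPM per kb in DCA and untreated cells of experiment 2, and at 0.964 ± 0.111 and 1.09 ± 0.325 in those of experiment 1. Snhg3 rested on 13 to 48 counts per library, so its values are the least precise of the set.

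The middle of the order differed between the groups. In experiment 2 DCA cells it ran Snhg5 (17.6 CPM per kb), Snhg8 (16.1), Snhg15 (15.6), Snhg1 (9.70), Snhg6 (6.56), Snhg16 (1.98) and Snhg12 (1.83), where Snhg8 overlapped Snhg15 and Snhg16 overlapped Snhg12 over libraries. In experiment 2 untreated cells it ran Snhg8 (17.4), Snhg5 (15.9), Snhg15 (9.58), Snhg1 (8.68), Snhg6 (7.01), Snhg16 (1.82) and Snhg12 (1.49). There, Snhg8 and Snhg5, Snhg15 and Snhg1, and Snhg16 and Snhg12 overlapped. In experiment 1 DCA cells it ran Snhg15 (26.0), Snhg5 (25.4), Snhg8 (20.4), Snhg6 (16.6), Snhg1 (13.1), Snhg12 (3.24) and Snhg16 (1.69), and the ranges of Snhg15 and Snhg5 overlapped. In experiment 1 untreated cells it ran Snhg15 (30.9), Snhg5 (27.8), Snhg6 (20.7), Snhg8 (18.3), Snhg1 (15.0), Snhg12 (3.26) and Snhg16 (2.21). Only the steps from Gas5 to Snhg15, from Snhg5 to Snhg6, from Snhg1 to Snhg12 and from Snhg16 to Snhg3 were free of overlap there. By mean, Snhg15 held the fourth place in both groups of experiment 2 and the second place in both groups of experiment 1, although its range overlapped a neighbour's in each.

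**Figure D1:**
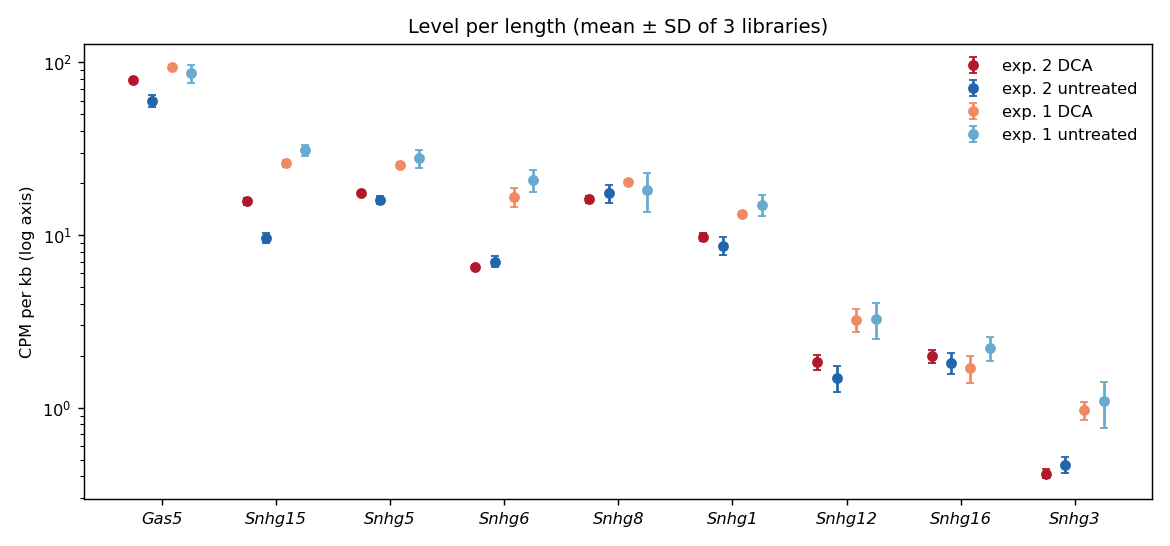
Level per length of the 9 genes (vertical log axis, CPM per kb of the authors' deposited gene length) in the 4 groups, as mean ± SD of 3 libraries. Gas5 lies on top in each group, from 59.6 to 93.4 CPM per kb, and Snhg3 at the bottom, from 0.414 to 1.09 CPM per kb.

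With DCA, Gas5 was the 1 gene of the tested 8 that rose, and it did so in experiment 2. Snhg15, described only, was higher with DCA in experiment 2 and lower in experiment 1. None of the tested 8 passed in experiment 1, and none had a DCA effect that differed between the experiments by the test of the difference. In bulk RNA, fewer cells that express a gene and less RNA per cell cannot be told apart.

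Snhg15, the host of Snora9 and known in human cells as a short-lived transcript, had 47.9, 44.7 and 48.6 CPM in the 3 DCA libraries of experiment 2, against 29.9, 30.0 and 26.6 CPM in the untreated ones. In experiment 1 it had 76.3, 75.5 and 82.6 CPM in DCA libraries, against 94.8, 98.6 and 85.5 CPM in untreated ones. Neither pair of groups overlapped, and experiments 2 and 1 pointed in opposite directions. Mouse by mouse, the difference of log2 CPM (DCA minus untreated) was 0.68, 0.57 and 0.87 in experiment 2 and -0.31, -0.39 and -0.05 in experiment 1. As fitted log2 fold changes these are 0.71 (SE 0.09, 1.63-fold) in experiment 2 and -0.25 (SE 0.09, 1.19-fold lower) in experiment 1, and their difference is 0.96 (SE 0.13). Mouse 3 gave the highest difference in experiment 2, and the mouse of that number the one nearest 0 in experiment 1. The fall in experiment 1 was smaller under cyclic loess normalization, at -0.12 (SE 0.09), and with a filter at 5 CPM in 3 libraries, at -0.16 (SE 0.09). In experiment 2 cyclic loess gave 0.74 (SE 0.09). Without any 1 library, the difference ran from 0.81 to 1.02.

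Gas5, the host with the most snoRNAs here, had 322, 312 and 318 CPM in DCA libraries of experiment 2, against 219, 241 and 256 CPM in untreated ones. The DCA libraries were all above the untreated ones, with means of 317 ± 5.39 and 238 ± 18.5 CPM (SD, n = 3 each). The log2 fold change was 0.41 (SE 0.08, 1.33-fold, adjusted p = 0.0136, edgeR quasi-likelihood test with Benjamini-Hochberg adjustment over 15688 genes), and 4.57% of all tested genes passed in this comparison, 2.37% higher and 2.2% lower. A single pass among 8 genes describes Gas5 and not the group. The call was lost when any 1 of the 3 DCA libraries or of untreated libraries 1 and 2 was left out, and kept without untreated library 3 (log2 fold change 0.30 to 0.42, adjusted p 0.0276 to 0.0892 over the 6 fits). In experiment 1, Gas5 had 369, 365 and 386 CPM in DCA libraries and 343, 389 and 306 CPM in untreated libraries, groups that overlap. Its log2 fold change there was 0.11 (SE 0.08, adjusted p = 0.407), and 0.31 (adjusted p = 0.0186) under cyclic loess normalization. The difference of the 2 effects, 0.30 (SE 0.12), did not pass (adjusted p = 0.251).

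With the experiments pooled and a term for experiment in the fit, Gas5 rose with DCA by 0.26 on the log2 scale (SE 0.07, 1.20-fold, adjusted p = 0.0198, edgeR), and was higher in 5 of 6 mice. It was the 1 gene that passed among the tested 8, where 16.8% of all tested genes did (7.01% higher, 9.8% lower). The call held in each of 12 fits that left out 1 library (adjusted p 0.00423 to 0.0455). In the authors' deposited table, Gas5 had a log2 fold change of 0.266 and a false discovery rate of 0.0863, which lies above 0.05. The lowest unadjusted p of the other 8 hosts in the authors' deposited table was that of Snhg6 (log2 fold change -0.205, p = 0.0965, false discovery rate 0.312).

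**Figure D2:**
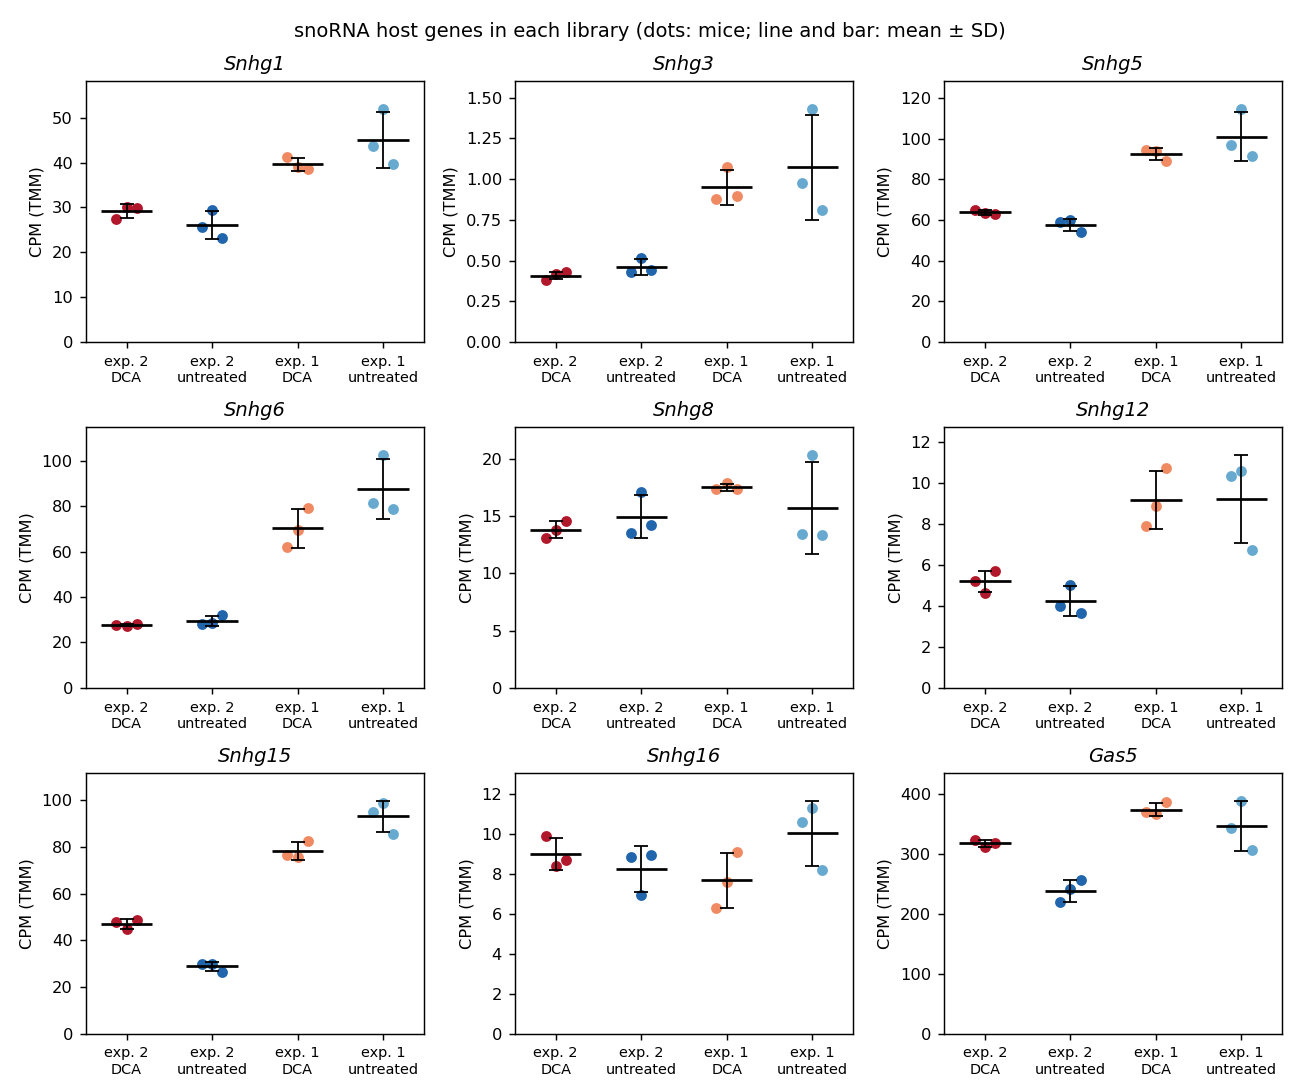
CPM after TMM scaling (vertical axes, from 0) of each of the 9 genes in the 12 libraries, one panel per gene, with experiment 2 DCA, experiment 2 untreated, experiment 1 DCA and experiment 1 untreated cells from left to right. Dots are mice, lines and bars are mean ± SD of 3, and Snhg15 shows the opposite order of DCA and untreated cells in the 2 experiments (47.1 and 28.8 CPM against 78.1 and 93.0 CPM).

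The other 7 hosts had smaller DCA effects in experiment 2, with none passing. Snhg5 had 65.1, 63.5 and 62.8 CPM in DCA libraries and 58.8, 59.9 and 54.2 CPM in untreated ones, groups that do not overlap, with a log2 fold change of 0.15 (SE 0.09, adjusted p = 0.439). Groups without overlap were common: among the tested hosts Snhg5 and Gas5 were all above and none all below, where 30.2% of all tested genes had no overlap, 15.6% above and 14.6% below. Snhg15, selected on this contrast, was also all above. Snhg12 averaged 5.19 CPM in DCA and 4.22 CPM in untreated cells (0.30, SE 0.22, adjusted p = 0.543). Snhg1 averaged 29.2 and 26.1 CPM in DCA and untreated cells (0.16, SE 0.12), and Snhg16 8.98 and 8.22 CPM (0.13, SE 0.19). Snhg6, Snhg8 and Snhg3 had values below 0, at -0.10, -0.12 and -0.17 (SE 0.12, 0.17 and 0.47). The median log2 fold change of the 9, Snhg15 included, was 0.15, and that of all tested genes 0.00287.

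In experiment 1 the log2 fold changes were below 0 for 7 of the 9 genes, among them Snhg15, which was selected on this contrast. Of the others, Snhg5 turned to 0.024 under cyclic loess and Snhg12, at -0.01, to 0.079 under a stricter filter. The median of the 9, Snhg15 included, was -0.18 beside -0.03 over all tested genes. None of the tested 8 passed, where 16.7% of all genes did (5.67% higher, 11% lower). Of these hosts 1, Snhg6, had an unadjusted p under 0.05, which 4702 of the 15688 tested genes had. Snhg6, the host of Snord87, had 61.9, 69.6 and 79.0 CPM in DCA libraries and 81.2, 103 and 78.6 CPM in untreated ones, which overlap. Its log2 fold change was -0.32 (SE 0.12, adjusted p = 0.0811), and it passed without DCA library 3 (-0.41, adjusted p = 0.0451). Snhg16, which hosts the Snord1 group, had 6.30, 7.60 and 9.08 CPM in DCA libraries and 10.6, 11.3 and 8.19 CPM in untreated ones (-0.39, SE 0.20, adjusted p = 0.202). In both genes mouse 3 departed from mice 1 and 2. None of the tested 8 had all DCA libraries above or all below the untreated ones, against 11.3% and 18% of all tested genes (29.3% in all). Snhg15, selected on this contrast, had them all below.

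By mouse, the differences of Snhg1 and Snhg5 had the signs of those of Snhg15, though some lay near 0. The share of all tested genes with these signs is not given here, so the match is a description only. Snhg1 differed by 0.10, 0.03 and 0.37 on the log2 scale (DCA minus untreated) in the mice of experiment 2 and by -0.08, -0.41 and -0.04 in those of experiment 1. Snhg5 differed by 0.15, 0.08 and 0.21 in experiment 2 and by -0.03, -0.29 and -0.04 in experiment 1. The test of the difference between the experiments did not pass for either (Snhg1 0.35, SE 0.17, adjusted p = 0.377; Snhg5 0.27, SE 0.13, adjusted p = 0.355). Among all tested genes 0.331% passed that test, 0.28% with the larger effect in experiment 2 and 0.051% with the smaller. Of the tested 8 hosts 0 passed, and 0 passed under DESeq2, limma-voom or the fit with a term per mouse. Gas5 was the 1 with an unadjusted p under 0.05, which 2226 of the 15688 tested genes had. All but Snhg8 of the 9, Snhg15 included, had a difference above 0 (Snhg3, at 0.00396, turned to -0.035 under RLE size factors). The median was 0.30 beside 0.04 over all tested genes.

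**Figure D3:**
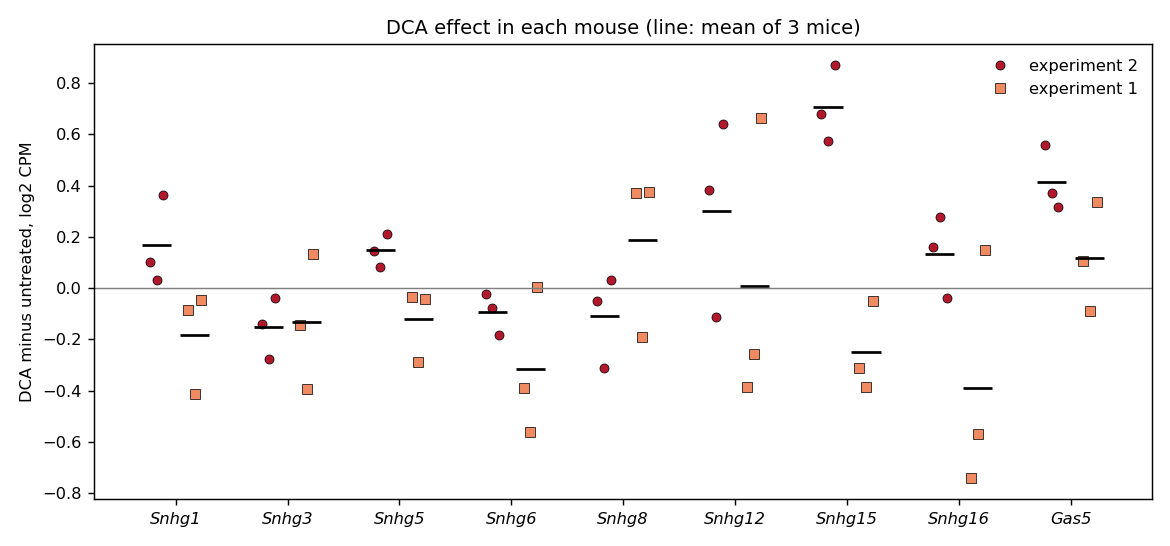
DCA minus untreated log2 CPM (vertical axis) in each mouse for the 9 genes, with experiment 2 as circles and experiment 1 as squares, and a line at the mean of 3 mice. Snhg15 lies at 0.57 to 0.87 in experiment 2 and at -0.39 to -0.05 in experiment 1, and Snhg1 and Snhg5 also keep one sign within each experiment.

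Other properties of the libraries moved with DCA. In experiment 2, ribosomal protein genes took 6.41% to 6.68% of counts in DCA libraries and 5.73% to 6.07% in untreated ones, and genes detected numbered 23635 to 24326 and 24831 to 26571. In experiment 1, mitochondrial transcripts took 1.32% to 1.58% of counts in DCA libraries and 1.01% to 1.14% in untreated ones. The CD8 T cell markers are given relative to library totals without TMM adjustment. In experiment 2 they summed to 3801 to 4091 CPM in DCA libraries and 4321 to 4890 CPM in untreated ones. In experiment 1 they summed to 3861 to 4165 and 3190 to 3795 CPM. Neither pair overlapped on this scale, with DCA libraries lower in experiment 2 and higher in experiment 1. The separation in experiment 1 need not hold after TMM scaling. The TMM factors there were 0.9096 to 0.9343 in DCA and 0.8176 to 0.8447 in untreated libraries. On the unadjusted scale the 4 myeloid markers were nearly all Cd68. They summed to 15.9 to 18.0 in DCA and 7.50 to 16.6 in untreated libraries of experiment 2. In those of experiment 1 they summed to 9.53 to 27.3 and 6.16 to 9.48. These groups of experiment 1 came close without overlap, which again need not hold after TMM scaling. The part of these shifts in the host gene results was not tested. Gas5 took 61.5% to 62.1% of the reads of the 9 genes in DCA libraries and 56.4% to 61.0% in untreated ones in experiment 2, and 53.8% to 54.7% and 48.5% to 49.4% in experiment 1. For each 100 Gas5 reads there were 14.9, 14.3 and 15.3 Snhg15 reads in DCA libraries of experiment 2, against 13.7, 12.5 and 10.4 in untreated ones. In experiment 1 there were 20.7, 20.7 and 21.4 in DCA libraries, against 27.6, 25.4 and 28.0 in untreated ones. These ratios hold the counts on which Snhg15 was selected and are a description only.

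After TMM scaling, experiment 2 had lower levels of most host genes than experiment 1, in both arms. The TMM factors were 1.116 to 1.174 in experiment 2 and 0.8176 to 0.9343 in experiment 1. This scaling lowers the values of experiment 2 relative to those of experiment 1. As shares of unadjusted counts, all 9 hosts together took 0.05917% to 0.06076% in experiment 2 and 0.06209% to 0.06479% in experiment 1 DCA cells. In untreated cells they took 0.04367% to 0.04675% and 0.05279% to 0.06537%. Single genes were not tested on that scale. In untreated cells 6 of the tested 8 were lower and 0 higher, where 25.2% of all tested genes were lower and 26.7% higher (51.8% in all). In DCA cells 6 of 8 were again lower and 0 higher, where 24.1% of all genes were lower and 28.1% higher (52.3% in all). In both arms the 6 include Gas5, whose direction depended on the normalization, as given below. They also include Snhg3, whose calls were lost in most fits that left out a library. The median log2 fold change of the 9, Snhg15 included, was -0.81 in untreated and -0.53 in DCA cells, beside 0.11 over all tested genes in each. All 3 libraries of experiment 2 lay below all 3 of experiment 1 for 7 of the 9 in untreated cells and for 8 in DCA cells. Of all tested genes, 28.4% and 27.6% did so. They lay above for none, against 31.5% and 33.9% (59.9% and 61.5% without overlap in all). Snhg15 is among those below in both arms. Its values hold the counts on which it was selected and are a description only.

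Snhg6 differed most among the tested 8. It had 27.7, 27.2 and 28.1 CPM in experiment 2 DCA cells against 61.9, 69.6 and 79.0 CPM in experiment 1 DCA cells, and 28.1, 28.6 and 32.0 CPM in experiment 2 untreated cells against 81.2, 103 and 78.6 CPM in experiment 1 untreated cells. The log2 fold change was -1.34 in DCA cells (SE 0.12, adjusted p = 2.66e-07) and -1.56 in untreated cells (SE 0.12, adjusted p = 4.66e-08, edgeR). The libraries of experiment 2 were close together, and experiment 2 was 2.54-fold lower in DCA cells and 2.96-fold lower in untreated cells. Snhg12 was also lower in experiment 2, at -0.82 in DCA cells (SE 0.22, adjusted p = 0.00632) and at -1.13 in untreated cells (SE 0.22, adjusted p = 0.000635).

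Snhg5 and Snhg1 had smaller differences. Snhg5 averaged 63.8 CPM in experiment 2 DCA cells against 92.4 CPM in experiment 1 DCA cells (-0.53, SE 0.09, adjusted p = 0.000172), and 57.7 against 101 CPM in untreated cells (-0.81, SE 0.09, adjusted p = 2.91e-06). Snhg1 averaged 29.2 against 39.6 CPM in DCA cells (-0.44, SE 0.12, adjusted p = 0.00734) and 26.1 against 45.1 CPM in untreated cells (-0.79, SE 0.12, adjusted p = 6.76e-05). Snhg3 was at -1.21 in both arms (SE 0.46 each, adjusted p = 0.0401 in DCA and 0.0386 in untreated cells). The Snhg3 call was lost with no filter on low counts (adjusted p = 0.316 in DCA and 0.294 in untreated cells). It was also lost when any 1 library was left out in DCA cells and in 5 of 6 such fits in untreated cells, kept there without experiment 1 library 3 (adjusted p up to 0.0998 in DCA and 0.142 in untreated cells).

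Gas5 was lower in experiment 2, at -0.24 in DCA cells (SE 0.08, adjusted p = 0.0274) and at -0.54 in untreated cells (SE 0.08, adjusted p = 7.02e-05), but above 0 under cyclic loess normalization, at 0.28 (adjusted p = 0.00695) and 0.084 (adjusted p = 0.394). The DCA call was also lost with no filter on low counts (adjusted p = 0.139) and without experiment 2 DCA library 2 (adjusted p = 0.0655) or experiment 1 DCA library 1 or 3 (adjusted p = 0.0515 and 0.0876). Cyclic loess moved the median of all genes to -0.03 in DCA and -0.02 in untreated cells, a shift of over 0.1 from TMM. Gas5 thus had no settled direction between the experiments, while Snhg6, Snhg12, Snhg5, Snhg1 and Snhg3 stayed lower under each normalization. Snhg15, with no test, had fitted values of -0.73 (SE 0.09) in DCA cells and -1.69 (SE 0.09) in untreated cells, the lowest of the 9 in untreated cells. Snhg8, host of Snora24, did not pass at -0.34 in DCA and -0.07 in untreated cells (adjusted p = 0.104 and 0.747), but passed in DCA cells under cyclic loess (-0.59, adjusted p = 0.00749). Snhg16 did not pass either, at 0.23 and -0.29 (adjusted p = 0.348 and 0.238), but passed in untreated cells under cyclic loess (-0.54, adjusted p = 0.0279).

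Ribosomal protein genes took 5.73% to 6.68% of counts in experiment 2 and 6.91% to 7.95% in experiment 1. Together with the mitochondrial share, the number of genes detected and the level of Klrb1c given above, they differed between the experiments without overlap of the libraries. Their part in the host gene differences was not tested. All 9 host genes together took 0.0437% to 0.0608% of counts in experiment 2 and 0.0528% to 0.0654% in experiment 1.

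**Figure D4:**
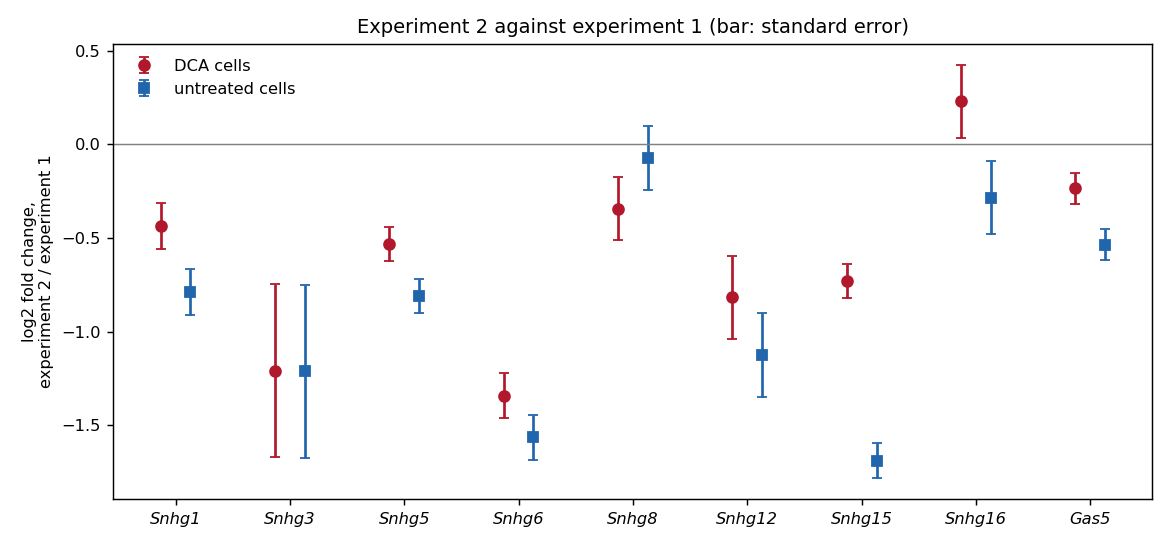
Fitted log2 fold change of experiment 2 over experiment 1 (vertical axis) for the 9 genes, with DCA cells as circles, untreated cells as squares and bars for 1 standard error. Values lie below 0 for all but Snhg16 in DCA cells (0.23), with Snhg15 at -0.73 and -1.69, and Gas5 changes sign under cyclic loess normalization (0.28 and 0.084).

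Other genes named Snhg gave a comparison set of 8, of which 6 were tested. Snhg17, another snoRNA host, was the 1 of the 6 that passed with DCA, in experiment 1. There 16.7% of all tested genes passed, so a single call among 6 is near that share and describes Snhg17 only. It had 10.5, 11.2 and 8.57 CPM in DCA libraries of experiment 1, against 17.8, 20.9 and 17.8 CPM in untreated ones (-0.90, SE 0.14, adjusted p = 0.00105), and passed in each of the 6 fits that left out a library. In experiment 2 it had 18.5, 19.4 and 21.7 CPM in DCA libraries, against 15.9, 15.3 and 17.6 CPM in untreated ones (0.29, SE 0.14, adjusted p = 0.302). The difference of the effects was 1.19 (SE 0.20, adjusted p = 0.0228), with the sign seen for Snhg15, where 0.331% of all tested genes passed. It missed the threshold with a term per mouse (adjusted p = 0.0531) and passed in 4 of 12 fits that left out a library, those without experiment 1 untreated library 3 or any experiment 1 DCA library (adjusted p 0.0196 to 0.159 over the 12).

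Between the experiments, Snhg4, Snhg10 and Snhg20 were lower in experiment 2 in both arms. Of all tested genes, 24.1% were lower and 28.1% higher in DCA cells, and 25.2% and 26.7% in untreated cells. Snhg4 had -1.05 in DCA and -1.44 in untreated cells, Snhg10 -1.17 and -0.85, and Snhg20 -1.02 and -0.69 (adjusted p at most 0.0133). Snhg17 was higher in experiment 2 in DCA cells (0.98, SE 0.14, adjusted p = 4.27e-05) and did not pass in untreated cells (-0.21, SE 0.14, adjusted p = 0.23).

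**Figure D5:**
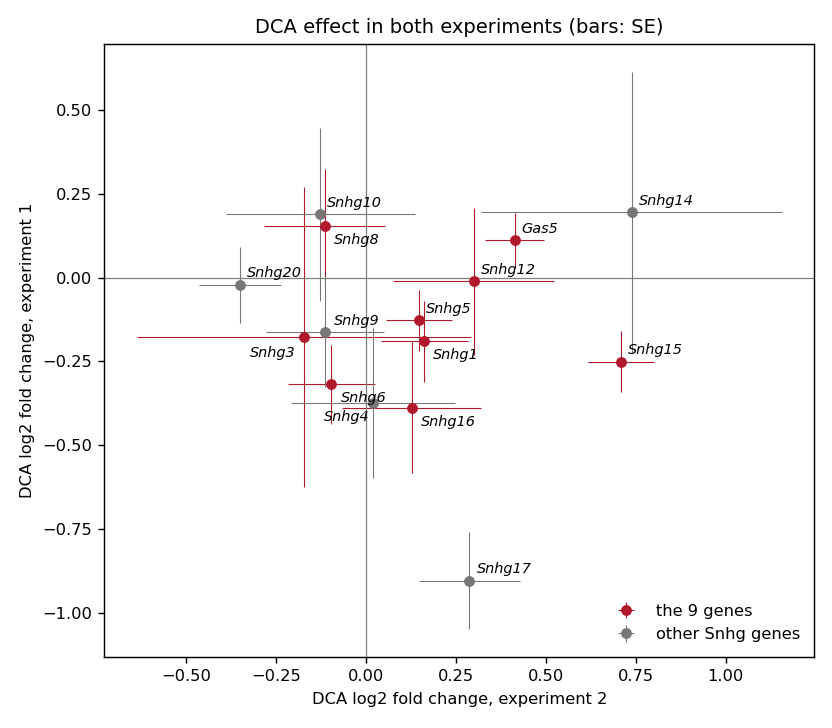
Fitted DCA log2 fold change in experiment 2 (horizontal axis) and in experiment 1 (vertical axis) for the 9 genes (red) and 6 other Snhg genes (grey), with bars for 1 standard error. Snhg15 (0.71 and -0.25) and Snhg17 (0.29 and -0.90) lie at the lower right, and Gas5 (0.41 and 0.11) at the upper right.

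The machinery around the host genes was followed with 4 lists. The proteins that bind snoRNAs and assemble their particles held 22 tested genes. With DCA in experiment 2 0 of 22 passed, where 4.57% of all tested genes did. In experiment 1 11 were lower, where 11% of all tested genes were, and 0 higher (median log2 fold change -0.36 beside -0.03 over all tested genes), led by Rrp9, a protein of the U3 snoRNA particle (-1.05, SE 0.13, adjusted p = 0.000288), and Ruvbl2, an ATPase of particle assembly (-0.72, SE 0.10, adjusted p = 0.00041). Over both experiments 7 were lower, where 9.8% of all tested genes were, with Snu13, which binds box C/D snoRNAs, at -0.35 (SE 0.07, adjusted p = 0.00269), and 0 differed in DCA effect between the experiments. In untreated cells of experiment 2 against experiment 1, where 25.2% of all tested genes were lower and 26.7% higher, 14 were lower, among them Nhp2 (-2.16), a protein of box H/ACA particles, and Znhit3 (-2.01), an assembly factor, and 2 were higher, Nufip1 (0.57) and Rrp9 (0.42, lost without experiment 1 library 3, adjusted p = 0.0611). In DCA cells 10 were lower and 6 higher, where 24.1% and 28.1% of all tested genes were. Under cyclic loess the share of higher genes among all calls was 51.0% for DCA in experiment 1, against 33.9% with TMM, and 64.4% for DCA in experiment 2, against 51.9%.

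Nonsense-mediated decay, which degrades spliced host RNAs, held 23 tested genes. In experiment 2 DCA cells 3 were lower, with Rbm8a, a subunit of the exon junction complex, at -0.34 (SE 0.08, adjusted p = 0.0208) and the release factor Gspt1 at -0.56 (SE 0.14, adjusted p = 0.031), and 0 were higher, where 2.2% of all tested genes were lower and 2.37% higher. Neither passed with a term per mouse. In experiment 1 DCA cells 6 were lower, with Eif4a3, another exon junction subunit, at -0.57 (SE 0.08, adjusted p = 0.000474) and the decapping enzyme Dcp2 at -0.44 (SE 0.11, adjusted p = 0.0141), and 0 higher, where 11% and 5.67% of all tested genes were. Over both experiments 7 were lower and 0 higher, beside 9.8% and 7.01%. In experiment 2 against experiment 1, 10 were lower and 5 higher in DCA cells, and 11 lower and 6 higher in untreated cells. These are 15 and 17 of 23, where 52.3% and 51.8% of all tested genes passed, with Magohb lowest in untreated cells (-2.39) and the helicase Dhx34 highest (1.33).

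Protein-coding genes that also carry snoRNAs in their introns held 35 tested genes. In experiment 2 3 were higher with DCA and 0 lower, where 2.37% and 2.2% of all tested genes were, with the ribosomal protein genes Rpsa at 0.35 (SE 0.07, adjusted p = 0.013) and Rpl4 at 0.29 (SE 0.05, adjusted p = 0.0102). In experiment 1 11 were lower, with Hspa8, a constitutive heat shock protein, at -0.64 (SE 0.08, adjusted p = 0.000287) and the ribosome assembly gene Wdr43 at -0.59 (SE 0.11, adjusted p = 0.0023), and 1 was higher, Rps12 (0.37, SE 0.09, adjusted p = 0.0147), beside 11% lower and 5.67% higher of all tested genes. Hspa8 was the 1 whose DCA effect differed between the experiments (0.80, SE 0.11, adjusted p = 0.0107). Experiment 2 was lower than experiment 1 for 20 and higher for 8 in DCA cells, and lower for 24 and higher for 4 in untreated cells. Of all tested genes, 24.1% were lower and 28.1% higher in DCA cells, and 25.2% and 26.7% in untreated cells. In untreated cells, Rpl23 (-1.64) was lower and Rps2 (0.90) and Eef2 (0.51) higher.

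Regulators of terminal oligopyrimidine mRNAs held 15 tested genes. With DCA, 1 was higher and 1 lower in experiment 2, where 4.57% of all tested genes passed, and 1 was higher and 2 lower in experiment 1, where 16.7% did. Pabpc1, the cytoplasmic poly(A)-binding protein, rose with DCA in experiment 2 (0.42, SE 0.08, adjusted p = 0.00816) and in experiment 1 (0.30, SE 0.08, adjusted p = 0.0155). Rheb, the GTPase that activates mTORC1, fell in both, at -0.34 (SE 0.07, adjusted p = 0.013) in experiment 2 and -0.40 (SE 0.07, adjusted p = 0.00129) in experiment 1, where the cap-binding protein Eif4e fell too (-0.50, SE 0.09, adjusted p = 0.00171). In experiment 2 against experiment 1, 6 were lower and 3 higher in DCA cells, and 9 lower and 3 higher in untreated cells, with Rheb at -2.06 and Eif4ebp1, a repressor of Eif4e, at -1.24 in untreated cells. The 9 called of 15 in DCA cells are near the 52.3% of all tested genes that passed there, beside 12 of 15 and 51.8% in untreated cells. As for Gas5, the calls of Rpl4, Rpsa, Pabpc1, Rheb, Rbm8a and Gspt1 in experiment 2 were lost without some single libraries (highest adjusted p 0.0969, 0.106, 0.0665, 0.0614, 0.0819 and 0.124). Under cyclic loess the calls of Rbm8a and Rheb in experiment 2 and of Dcp2 in experiment 1 were lost too (adjusted p = 0.0601, 0.0545 and 0.0503). Leaving out single libraries also ended calls of Dcp2, Rps12 and Pabpc1 in experiment 1 (highest adjusted p 0.0599, 0.0617 and 0.0684) and that of the difference of Hspa8, called in 6 of 12 such fits, those that left out a library of experiment 1 (highest 0.123).

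Genes beside the hosts were read from the GRCm38 annotation, for neighbourhood only. Where a gene overlaps a host, reads of the 2 cannot be assigned with certainty, since the strand setting is not given in the sources used here. Rcc1 overlaps Snhg3 on the same strand, Mcmdc2 overlaps Snhg6, St6galnac2 overlaps Snhg16 and Zbtb37 overlaps Gas5, each on the opposite strand. These overlapping genes had 17902, 76, 448 and 799 counts over the 12 libraries. Rcc1, the exchange factor of Ran, was higher in experiment 2 in DCA (0.86, SE 0.19, adjusted p = 0.00152) and untreated cells (0.55, SE 0.19, adjusted p = 0.0237), where Snhg3 was lower. With DCA, Rcc1 fell in experiment 1 (-0.63, SE 0.19, adjusted p = 0.0364) and over both experiments (-0.47, SE 0.14, adjusted p = 0.0284). These calls were lost with a term per mouse (adjusted p = 0.0639 and 0.0619) and in 4 of 6 and 6 of 12 fits that left out a library (highest adjusted p 0.124 and 0.0754), and the first also under cyclic loess (adjusted p = 0.0738). The Rcc1 call in untreated cells was lost without experiment 2 library 2 or experiment 1 library 3 (highest adjusted p 0.102). Zbtb37 did not pass in any comparison.

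Trnau1ap, which binds the selenocysteine tRNA, lies within 5 kb of Snhg12 on the opposite strand. It averaged 72.7 ± 2.51 CPM in DCA cells and 59.6 ± 2.72 CPM in untreated cells of experiment 2 (0.29, SE 0.08, adjusted p = 0.0463), and 118 ± 6.20 and 148 ± 7.44 CPM in those of experiment 1 (-0.33, SE 0.08, adjusted p = 0.00879; SD, n = 3 each). The difference of the effects was 0.62 (SE 0.11, adjusted p = 0.0256). It missed the threshold with a term per mouse (adjusted p = 0.0768) and under cyclic loess (0.52, adjusted p = 0.0549), and passed in 3 of 12 fits that left out a library. The effect in experiment 2 passed in 0 of 6 such fits, and missed under RLE size factors (adjusted p = 0.0738) and with no filter (adjusted p = 0.147). The effect in experiment 1 was -0.18 under cyclic loess (adjusted p = 0.122). Myo1g, a myosin of lymphocytes within 5 kb of Snhg15 on the same strand, was higher in experiment 2, by 1.39 in DCA cells and 1.42 in untreated cells (SE 0.09 each, adjusted p = 4.76e-09 and 3.7e-09), the opposite direction to Snhg15 next to it. With DCA, Myo1g had 0.20 in experiment 2 and 0.23 in experiment 1 (adjusted p = 0.224 and 0.0848). Over both experiments it rose by 0.21 (SE 0.06, adjusted p = 0.0271), a call lost with a term per mouse (adjusted p = 0.0588), with no filter (adjusted p = 0.0779) and in 5 of 12 fits that left out a library (highest adjusted p 0.0639). Slc3a2 beside Snhg1, an amino acid transporter subunit, had -0.11 in DCA and -0.24 in untreated cells between the experiments (adjusted p = 0.225 and 0.0135), the second of which was lost in 4 of 6 fits that left out a library (highest adjusted p 0.182) and with no filter (adjusted p = 0.119), and turned to 0.33 under cyclic loess.

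Likeness of profile was measured as the root mean square difference of log2 CPM, each gene centred on its own mean over the 12 libraries, over the 7906 genes whose log2 CPM averaged 3 or more. The 5 genes most like Snhg15 were Ube2d-ps (0.159), Plekha3 (0.16), Flvcr1 (0.169), Npm1 (0.177) and Coq10b (0.183). Npm1 encodes nucleophosmin, an abundant nucleolar protein, and Flvcr1 a heme and choline transporter. These 5 were picked for likeness to Snhg15 over the same 12 libraries, so directions shared with it follow from the choice and are a description only. The centred means of all 5 in experiment 2 DCA cells lay above those in experiment 2 untreated cells, as with Npm1 at -0.39 and -0.70. In experiment 1 Npm1 stood at 0.50 in DCA and 0.59 in untreated cells, and Coq10b went the other way, at 0.66 and 0.61. The 5 genes most like the mean of the 9 hosts were Eef1b2 (0.0742), Rps7 (0.0934), Rpl19 (0.0941), Eif5 (0.0958) and Mrpl43 (0.0976). Eef1b2 encodes a subunit of an elongation factor, Rps7 and Rpl19 ribosomal proteins, Eif5 an initiation factor and Mrpl43 a mitochondrial ribosomal protein. Eef1b2 had centred means of -0.28 and -0.38 in DCA and untreated cells of experiment 2, and of 0.32 and 0.34 in those of experiment 1. These values too follow from the choice by likeness.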

How the data were processed

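Gene expression was measured by RNA sequencing of CD8-sorted cells, from cDNA amplified over 15 cycles with a SmartSeq kit per the labels' protocols. The count table deposited by the authors holds whole read numbers per gene and is not normalized. The submitters' processing notes name the build GRCm39 and the tools STAR 2.7.10a, fastp 0.23.2 and edgeR 3.36.0. Which counter, annotation release and strand setting made it is not given in the sources used here. A second table, deposited by the authors, compares the 2 arms and per the file headers gives log2 fold changes, log2 CPM, p-values, false discovery rates and gene lengths. Reads shared by near-identical copies, by overlapping genes or by a gene and its antisense partner cannot be told apart here.

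The main test was the quasi-likelihood test of edgeR 4.0.16 (R 4.3.3) with TMM scaling and filterByExpr on the 4 groups, adjusted by Benjamini-Hochberg over 15688 genes at a threshold of 0.05. One fit with 4 group means over all 12 libraries gave the contrasts, and a fit with a term for experiment gave DCA over both experiments. A gene is called where its adjusted p passed. SE is the size of the log2 fold change over the root of its F statistic. CPM are TMM-scaled, except those of the cell markers, which are relative to unadjusted library totals. Log2 CPM used a prior count of 2. The alternatives were RLE size factors, cyclic loess with limma 3.58.1, limma-voom, DESeq2 1.42.0, no filter, 5 CPM in 3 libraries, a term per mouse, and each library left out in turn. The scripts were tested on simulated data.

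The same mouse gave both arms, so libraries pair by design: deviations from group means correlated at 0.0443 to 0.0834 within a mouse and at -0.0689 to -0.00438 between mice. No 2 replicates agreed within sampling noise (chi-square per degree of freedom 10.9 to 29.9). Each library is a separate mouse and arm. Without molecular identifiers, counting limits cover counting error only. All value columns were mapped (0 left out).

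The 9 genes and all lists were chosen with earlier results of these data known. Named beyond the 9 were other Snhg genes and, from each list and comparison, up to 2 higher and 2 lower called genes by adjusted p. Annotated genes within 5 kb of a host and the 5 genes nearest in profile to Snhg15 and to the mean of the 9 were named too. Some genes that these rules pick are not reported here. The authors' deposited table gave 15067 symbols and a gene list on GRCm38 another 37502; that build served for neighbours and promoter windows only.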

Additional observations from a re-analysis of the deposited data

Results flagged for a closer look

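The DCA effect of Snhg15 was 0.96 higher on the log2 scale in experiment 2 than in experiment 1, with every mouse of experiment 2 up and every mouse of experiment 1 down. The gene was chosen for this difference, which was not tested. Snhg17 differed by 1.19 in the same direction by the test of the difference (adjusted p = 0.0228, edgeR), higher with DCA in 3 of 3 mice of experiment 2 and lower in 3 of 3 of experiment 1. It averaged 19.9 ± 1.67 CPM in DCA cells and 16.3 ± 1.18 CPM in untreated cells of experiment 2, and 10.1 ± 1.34 and 18.8 ± 1.81 CPM in those of experiment 1 (SD, n = 3 each).

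Hspa8, which carries snoRNAs in its introns, differed by 0.80 by the same test (adjusted p = 0.0107). It averaged 1367 ± 7.07 CPM in DCA and 1222 ± 65.2 CPM in untreated cells of experiment 2, and 1540 ± 112 and 2394 ± 287 CPM in those of experiment 1 (SD, n = 3 each). Trnau1ap, beside Snhg12, differed by 0.62 (adjusted p = 0.0256), again up in 3 of 3 mice and down in 3 of 3. The differences of Snhg17, Hspa8 and Trnau1ap were not called in 8, 6 and 9 of the 12 fits that left out 1 library.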

How the results depend on the processing

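Of the values of single genes under the alternatives, 1750 kept direction and call, 127 lost the call, 4 gained it, 41 changed sign and 1 moved by more than its spread; of the counts, 149 stayed within 1.5 times and 27 did not. The count of tested hosts called for DCA in experiment 2 was 1, and 0 to 1 without single libraries; in experiment 1 it was 0, with 1 under cyclic loess and 0 to 1 without single libraries. All genes called for DCA in experiment 2 numbered 717, against 1171 with limma-voom, 1512 with DESeq2, 1116 without a filter and 210 to 629 without single libraries. Genes whose DCA effect differed numbered 52, against 30 with cyclic loess, 458 with DESeq2, 566 without a filter, 24 with the replicate block (a term per mouse) and 1 to 217 without single libraries. The block changed no call of the 9 hosts; beside the losses named in the report it ended that of Trnau1ap for DCA in experiment 2 (adjusted p = 0.0851). No paired fit exists between the experiments, since each mouse belongs to 1 experiment. The causes of these changes were not tested.

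Changes of sign were, for DCA in experiment 1, Snhg5 (0.024, cyclic loess) and Snhg12 (0.000537 with limma-voom, 0.079 with the stricter filter, 0.00376 with the block). For the difference of DCA effects Snhg3 turned to -0.035 (RLE), -0.00524 (limma-voom) and -0.026 (block). Over both experiments Snhg5 turned to -0.000502 (RLE) and -0.000888 (DESeq2), and Snhg1 to 0.043 (cyclic loess) and 0.031 (stricter filter). Between experiments cyclic loess turned Gas5 to 0.28 in DCA and 0.084 in untreated cells, Snhg16 to -0.045 in DCA cells and Slc3a2 to 0.33 in untreated cells. Without single libraries, values ran from -0.016 to 0.15 for Snhg16 with DCA in experiment 2, and in experiment 1 from -0.34 to 0.088 for Snhg3 and from -0.19 to 0.10 for Snhg12. They ran from -0.26 to 0.17 for the difference of Snhg3, and over both experiments from -0.059 to 0.056 for Snhg1, -0.015 to 0.070 for Snhg5 and -0.042 to 0.11 for Snhg8. Between experiments in untreated cells, Snhg8 ran from -0.18 to 0.16. None of these had passed before, apart from Gas5 and Slc3a2. Low counts limit Snhg3.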
